A study of Mus musculus with 18 samples.

Results

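The clustered protocadherins are cell-surface adhesion proteins encoded by 3 neighbouring gene clusters, alpha, beta and gamma, on mouse chromosome 18. Members were taken by symbol, as every gene whose symbol begins with Pcdha, Pcdhb or Pcdhg. This gave 58 gene identifiers of the 47729 in the count files: 14 alpha, 22 beta and 22 gamma, with 57 distinct symbols because 2 identifiers carry the symbol Pcdha11. The same locus was followed in the histone acetylation data, where it held 26 of 104737 regions with a peak.

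RNA and acetylation of histone H3 at lysine 9 (H3K9ac, a mark of active promoters and enhancers) were profiled in whole cortex of mouse embryos at embryonic day E15.5. All animals carried a conditional knockout of BAF155, the chromatin remodelling subunit encoded by Smarcc1, and were given vehicle alone or the histone deacetylase inhibitor trichostatin A (TSA). Each group had 4 RNA libraries and 4 H3K9ac libraries, numbered 1 to 4, and 2 input samples were not analysed here. No sample with an intact Smarcc1 gene was analysed here, and neither the Cre driver of the knockout nor whether replicates were separate embryos is given in the sources used here, so each p-value reflects the spread among these libraries and that spread may be technical.

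In the alpha and gamma clusters, each member has its own large first exon with its own promoter, which is spliced to a few constant exons shared by the whole cluster, while beta members are single-exon genes without shared exons. Each neuron is known to use a small, largely random set of the alternate promoters, chosen with the help of CTCF, cohesin and DNA methylation, whereas the C-type members at the end of the alpha and gamma clusters are used more widely. Proteins of the same identity bind each other between membranes, and these bonds underlie self-avoidance of neurites and help neuron survival and dendrite growth.

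RNA libraries held 6733415 counts (TSA 1) to 20400727 counts (TSA 3), of which 3708 to 10783 fell on the members. Mitochondrial genes took 2.86% of counts in Vehicle 1 and 3.36% in Vehicle 4, against 1.48% to 1.997% in the other libraries. Xist, the RNA of the inactive X chromosome, was above 10 CPM (a library's counts scaled to a common total) in 4 Vehicle libraries and in 1 TSA library, so the sex of the tissue and the treatment cannot be fully told apart. Smarcc1 itself had 124 to 148 CPM under Vehicle and 118 to 144 CPM in TSA, with a log2 fold change of −0.05 ± 0.09 (edgeR adjusted p = 0.732, SE with n = 4 per group), and counts over the whole gene do not check the deletion. Neuron and progenitor markers were present in every library, and 5 of 10 choroid plexus markers were under 1 CPM in every library. The H3K9ac library of Vehicle 4 had the most tags (24075842) and the fewest peaks (22668, against 32248 to 61217 in the other libraries).

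Clustered protocadherin RNA did not pass the test for any member in either direction. Of the 58 members, 52 had enough counts to be tested (11 alpha, 21 beta and 20 gamma), and 0 were called by edgeR's quasi-likelihood test at an adjusted p under 0.05, against 33.0% of all 15000 tested genes. DESeq2 also called 0. In a fit with Xist status as a covariate, TSA 4 alone is compared with the 4 Vehicle libraries. The covariate takes up TSA 1 to 3, where Xist was low. Only effect sizes of that fit are given, and they rest on 1 TSA library. At an unadjusted p under 0.05, edgeR gave 5 members, against 42.7% of all tested genes, and DESeq2 gave 5. The members are modestly expressed, with 50 of the 52 between 1 and 100 CPM on average, and 31.0% of all tested genes in that band were called. The 4 TSA libraries lay on 1 side of the 4 Vehicle libraries for 2 of the 52 members (3.85%), Pcdhb2 and Pcdhgc5, against 32.3% of all tested genes.

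Log2 fold changes (TSA minus Vehicle) of the 52 members ranged from −0.59 to 0.39 with a median of 0.01, beside −0.01 over all tested genes, and 26 were positive and 26 negative. Their standard errors had a median of 0.18, wider than the 0.13 over all tested genes. A missed threshold does not show equal levels, so the intervals matter: the 95% interval lay within a log2 change of 1 in either direction for 49 of the 52 members, and within 0.5 for 15. The 3 whose intervals reached past 1 were Pcdha1 (−0.82 to 1.30), Pcdhb2 (−1.08 to −0.10) and Pcdhb12 (−1.28 to 0.33). In whole tissue, fewer cells that express a gene and less RNA per cell cannot be told apart.

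**Figure D1:**
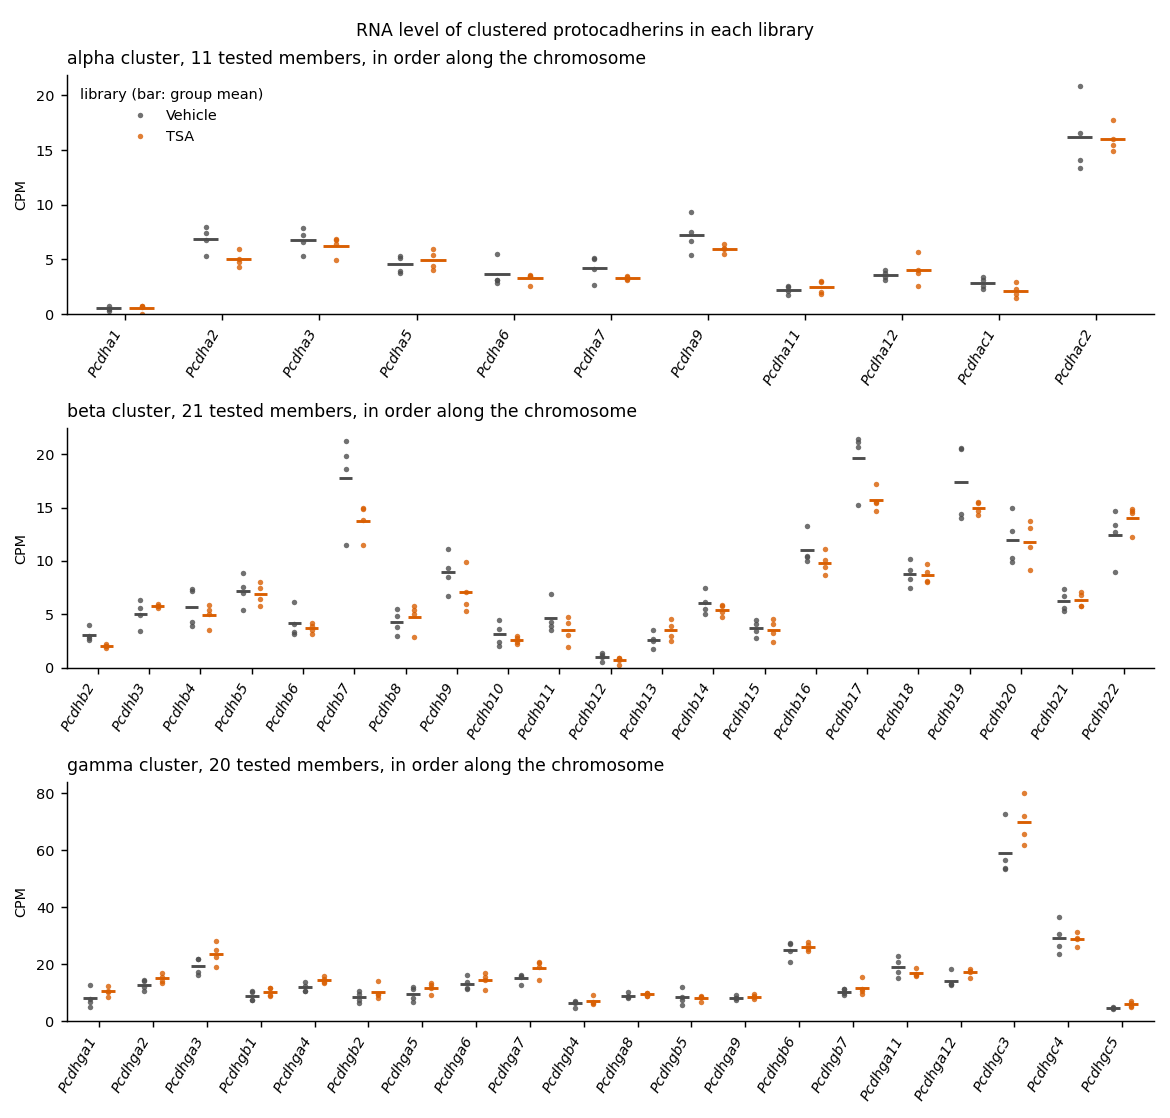
CPM (linear axis) of each tested member in every library, 1 panel per cluster, with a point for each Vehicle or TSA library and a bar at the group mean. The points of the 2 groups overlap for all members except Pcdhb2 and Pcdhgc5.

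The 5 C-type members were followed first, in CPM, a scale that is not corrected for transcript length and so is used only to compare libraries. Pcdhgc3, the first C-type gamma member, with 7481 counts over the 8 libraries, had 56.6, 53.8, 72.8 and 53.3 CPM in Vehicle libraries 1 to 4 and 80.2, 65.9, 61.9 and 71.8 CPM in TSA libraries 1 to 4. Vehicle 3 stood above the other Vehicle libraries and within the TSA range, so the groups overlapped. Its log2 fold change was 0.24 ± 0.12 (edgeR adjusted p = 0.132, SE with n = 4 per group). Without Vehicle 3 it was 0.35, with an edgeR adjusted p of 0.0225, and with 1 library left out it ran from 0.17 to 0.35.

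Pcdhgc4, a C-type gamma member known to be needed for survival of cortical interneurons, had 23.7, 26.4, 36.8 and 30.6 CPM in the Vehicle libraries and 29.3, 31.3, 28.9 and 26.1 CPM in TSA. All 4 TSA values lay inside the Vehicle range. The log2 fold change was −0.02, with a 95% interval from −0.30 to 0.26 (edgeR adjusted p = 0.909). Pcdhgc5, the last gamma member, had 4.47, 4.77, 5.10 and 4.75 CPM in the Vehicle libraries and 7.01, 5.14, 6.42 and 5.56 CPM in TSA. Each TSA library was above each Vehicle library, although TSA 2 exceeded Vehicle 3 by little. Its log2 fold change of 0.32 ± 0.17 (SE, n = 4 per group) did not pass the test (edgeR adjusted p = 0.166, 95% interval −0.04 to 0.69).

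Pcdhac2, the C-type alpha member found in serotonergic axons, where it directs their spacing, had 14.1, 13.4, 20.9 and 16.5 CPM in the Vehicle libraries and 14.9, 17.7, 16.05 and 15.505 CPM in TSA. The groups overlapped, with a log2 fold change of −0.01 ± 0.15 (edgeR adjusted p = 0.970, SE with n = 4 per group). Pcdhac1, the other C-type alpha member, had 2.61, 2.26, 3.38 and 3.17 CPM in the Vehicle libraries and 2.29, 1.86, 2.96 and 1.44 CPM in TSA. TSA 3 was above 2 Vehicle libraries, and the log2 fold change was −0.41 ± 0.27 (edgeR adjusted p = 0.267, SE with n = 4 per group). It was −0.65 without TSA 3 and −0.25 without TSA 4, and neither passed the test. In the fit with Xist status the log2 fold change was −0.98. The C-type members therefore had 2 positive and 3 negative values, with a median of −0.01.

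Among the alternate alpha members, Pcdha9 and Pcdha3 had the highest mean CPM. Pcdha9 had 7.27 ± 1.65 CPM under Vehicle and 5.97 ± 0.37 CPM in TSA (SD, n = 4), and Pcdha3 had 6.80 ± 1.09 and 6.26 ± 0.88 CPM. Neither passed the test, with edgeR adjusted p-values of 0.243 and 0.628 and log2 fold changes of −0.29 ± 0.18 and −0.13 ± 0.18 (SE). The value for Pcdha9 was −0.15 without Vehicle 3, and that for Pcdha3 ran from −0.23 to −0.02 with 1 library left out. Pcdha2, named after its values were seen because its unadjusted p was under 0.05, had 5.36, 6.77, 7.99 and 7.44 CPM in the Vehicle libraries and 5.03, 4.74, 4.35 and 6.002 CPM in TSA. Only TSA 4 reached into the Vehicle range, above Vehicle 1. Its log2 fold change was −0.46 ± 0.18 (edgeR adjusted p = 0.0708, SE with n = 4 per group). It was −0.56 without Vehicle 1 (edgeR adjusted p = 0.0293) but −0.20 with Xist status as a covariate.

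Over the alpha cluster, 4 of 11 tested members had positive and 7 negative values, with a median of −0.13. That median was 0.12 without Vehicle 3 and 0.03 when the filter on low counts was dropped, so its sign rests on 1 library and on the filter. Alpha members with few reads were Pcdha8 with 44 counts and Pcdha4 with 18 counts over all 8 libraries. The second identifier that carries the symbol Pcdha11 (ENSMUSG00000102206) had 0 counts in every Vehicle library and 4 counts in all in TSA, while the first (ENSMUSG00000007440) had 2.23 ± 0.39 CPM under Vehicle and 2.45 ± 0.62 CPM in TSA (SD, n = 4). Pcdha4 lies inside an annotated readthrough gene, Gm37013, that starts 41 bp before it and runs to the end of the gamma cluster. Every member that starts after Pcdha4 lies inside it as well, and Gm37013 was at 0 counts in all 8 libraries.

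The beta members are single-exon genes, so their levels can be set beside each other per kilobase of gene. In Vehicle, Pcdhb17 was the highest with 5.99 ± 0.89 CPM per kb, followed by Pcdhb7 with 5.07 ± 1.24, Pcdhb22 with 4.05 ± 0.80, Pcdhb19 with 3.68 ± 0.77 and Pcdhb20 with 3.53 ± 0.69 CPM per kb (SD, n = 4). Between neighbours in that order, the difference was smaller than the larger of their SDs. The lowest tested member was Pcdhb12 with 0.348 ± 0.115 CPM per kb. Pcdhb1, the first gene of the cluster, had 3 counts over all 8 libraries and was not tested. In TSA the order was Pcdhb17 with 4.80 ± 0.32, Pcdhb22 with 4.58 ± 0.40 and Pcdhb7 with 3.93 ± 0.46 CPM per kb (SD, n = 4).

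Of the 21 tested beta members, 16 had negative and 5 positive log2 fold changes, with a median of −0.17 and a range from −0.59 to 0.39. The positive ones were Pcdhb3, Pcdhb8, Pcdhb13, Pcdhb21 and Pcdhb22, named after their values were seen. Pcdhb17 had 15.3, 20.6, 21.1 and 21.4 CPM in the Vehicle libraries and 15.4, 14.7, 15.6 and 17.2 CPM in TSA. Vehicle 1 lay among the TSA libraries and the other 3 Vehicle libraries lay above all of them. The log2 fold change was −0.32 ± 0.13 (edgeR adjusted p = 0.0747, SE with n = 4 per group), and without Vehicle 1 it was −0.42 with an edgeR adjusted p of 0.0127. In the fit with Xist status it was −0.19.

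Pcdhb7 had the same low library, with 11.5, 18.6, 19.8 and 21.2 CPM in the Vehicle libraries and 14.9, 14.9, 11.5 and 13.8 CPM in TSA. Vehicle 1 and TSA 3 were the lowest of their groups, and the other 3 Vehicle libraries were above every TSA library. Its log2 fold change was −0.37 ± 0.17 (edgeR adjusted p = 0.115, SE with n = 4 per group), or −0.54 without Vehicle 1 (edgeR adjusted p = 0.00753). With 1 library left out it ran from −0.54 to −0.28. Pcdhb2, with the smallest p of all members, had 2.61, 3.997, 2.82 and 3.01 CPM in the Vehicle libraries and 1.83, 2.20, 2.07 and 2.06 CPM in TSA. The groups did not overlap, but the log2 fold change of −0.59 ± 0.23 (SE, n = 4 per group) missed the threshold (edgeR adjusted p = 0.0605). It was −0.67 without Vehicle 1 (edgeR adjusted p = 0.0483) and −0.44 without Vehicle 2 (edgeR adjusted p = 0.185). Pcdhb19, the remaining beta member among the 3 highest by CPM, had 14.03, 20.4, 20.5 and 14.4 CPM in the Vehicle libraries and 14.3, 15.4, 15.504 and 14.7 CPM in TSA. Vehicle 1 and Vehicle 4 matched the TSA libraries and the other 2 stood above them, with a log2 fold change of −0.21 ± 0.15 SE (edgeR adjusted p = 0.297), or −0.12 without Vehicle 2 or without Vehicle 3.

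The gamma cluster had the opposite balance of signs, with 17 positive and 3 negative values among 20 tested members, a median of 0.21 and a range from −0.18 to 0.38. The 3 negative ones were Pcdhga11, Pcdhgb5 and Pcdhgc4. When Xist status was a covariate, the gamma median was 0.09, with 15 of 20 positive, and the beta median was −0.09, with 14 of 21 negative. Pcdhgb6, an alternate member among the 3 highest by CPM in the cluster, had 25.0 ± 3.005 CPM under Vehicle and 26.1 ± 1.38 CPM in TSA (SD, n = 4), with a log2 fold change of 0.06 ± 0.11 SE (edgeR adjusted p = 0.726). Pcdhga7, named after its values were seen as the 1 gamma member with an unadjusted p under 0.05, had 15.7, 16.4, 15.8 and 12.7 CPM in the Vehicle libraries and 19.2, 21.0, 20.5 and 14.6 CPM in TSA. TSA 4 lay inside the Vehicle range and the other 3 TSA libraries lay above it. Its log2 fold change was 0.31 ± 0.14 (edgeR adjusted p = 0.105, SE with n = 4 per group). It was 0.42 without TSA 4 (edgeR adjusted p = 0.0340) and −0.06 when Xist status was included. Pcdhga10 had 0 counts in all 8 libraries, which allows up to 0.0255 CPM over the libraries together (3 counts, counting error only), and Pcdhgb8, annotated as a pseudogene, had 12 counts. The bound does not cover reads left out by the rule used for counting, which is not given.

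**Figure D2:**
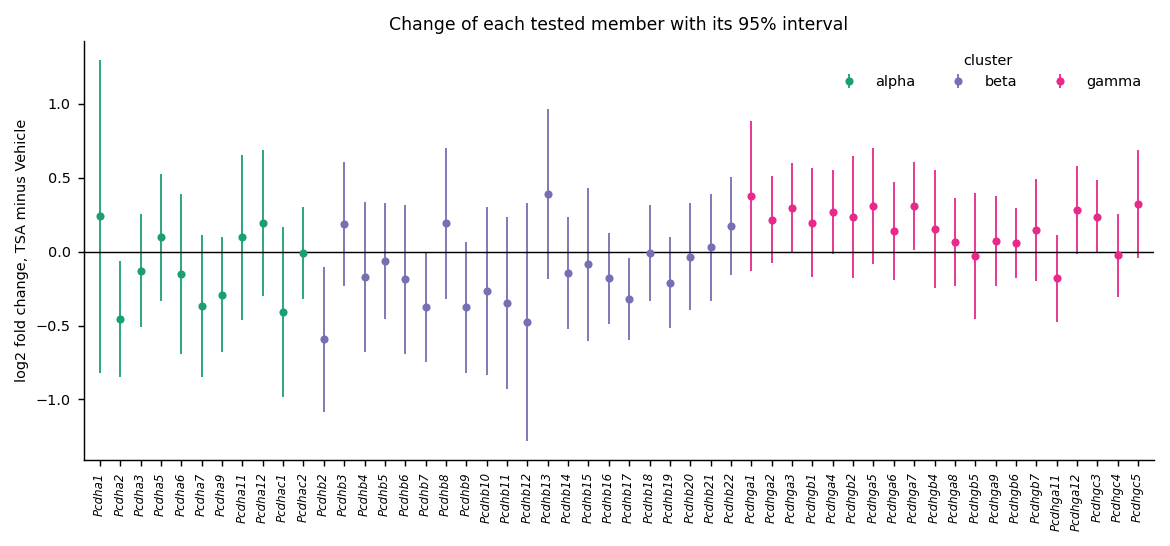
Log2 fold change (TSA minus Vehicle) of each tested member in locus order, with its 95% interval from edgeR, coloured by cluster. Points of 16 of 21 beta members lie below 0 and 17 of 20 gamma points lie above 0, and none passed the test after adjustment.

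The Vehicle libraries set much of this spread. Of the 52 members, Vehicle 3 was the highest Vehicle library for 31 and the lowest for 0, while Vehicle 1 was the lowest for 27 and Vehicle 4 for 18. Vehicle 1 and Vehicle 4 are the 2 RNA libraries richest in mitochondrial reads. Without them, 6 members passed the test, all lower in TSA: Pcdha7, Pcdha9, Pcdhb7, Pcdhb17, Pcdhb19 and Pcdhga11, with edgeR adjusted p-values from 0.0130 to 0.0460. In the same fit, 30.2% of all 15595 tested genes were called. In that comparison of 2 Vehicle with 4 TSA libraries the gamma median was 0.02 with 11 of 20 members positive, and the beta median was −0.25 with 20 of 21 members negative. Without Vehicle 3, by contrast, the beta median was −0.03, with 11 of 21 members negative. The part of RNA quality in these values was not tested.

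Members were also summed by cluster. The rule by which reads in shared constant exons were counted is not given in the sources used here, and the alpha and gamma sums may depend on it. Summed alpha RNA was 50.6, 57.2, 72.9 and 56.5 CPM in Vehicle libraries 1 to 4 and 54.4, 54.8, 54.7 and 54.6 CPM in TSA libraries 1 to 4. Summed beta RNA was 132.8, 176, 189 and 162 CPM in the Vehicle libraries and 153, 148, 146 and 154 CPM in TSA. Summed gamma RNA was 268, 319, 349 and 273 CPM in the Vehicle libraries and 358, 347, 332 and 325 CPM in TSA. For all 3 clusters the TSA libraries lay close together, the Vehicle libraries spread widely, and the groups overlapped.

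The share of each cluster in all member RNA was compared next. Gamma members held 59.4%, 57.8%, 57.1% and 55.6% of all member CPM in Vehicle libraries 1 to 4 and 63.4%, 63.1%, 62.4% and 60.9% in TSA 1 to 4. Every TSA library was above every Vehicle library, and the means were 57.5% ± 1.58 and 62.4% ± 1.11 (SD, n = 4), a difference of 4.98 percentage points. Beta members held 29.4%, 31.9%, 30.9% and 32.9% in Vehicle and 27.0%, 26.9%, 27.3% and 28.8% in TSA, again without overlap. Alpha members held 11.2%, 10.4%, 11.9% and 11.5% in Vehicle and 9.63%, 9.98%, 10.3% and 10.2% in TSA, where the lowest Vehicle and the highest TSA library nearly met. TSA 4, the 1 TSA library with Xist above 10 CPM, had the lowest gamma share and the highest beta share of its group. Among single genes, 32.3% of all tested ones also had the 4 TSA libraries on 1 side of the 4 Vehicle libraries. No test was run on these shares, because the members were chosen with results of these data known and the 3 shares add up to the whole.

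Leaving out any 1 library kept the gamma difference between 4.35 and 5.63 percentage points, and without both Vehicle 1 and Vehicle 4 it was 5.003. The 1265 tested genes spanning 2340 to 5271 bp, the range of beta members, had a median log2 fold change of −0.17, with 73 called higher and 341 called lower. The 6309 tested genes with gamma-like spans, 22328 to 180096 bp, had a median of 0.05, with 1341 called higher and 908 lower. The 3921 with alpha-like spans, 43986 to 257373 bp, had a median of 0.12, with 1056 called higher and 439 lower. Of all 15000 tested genes, 2314 were called higher and 2640 lower. The part of gene length in the cluster shares was not tested.

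**Figure D3:**
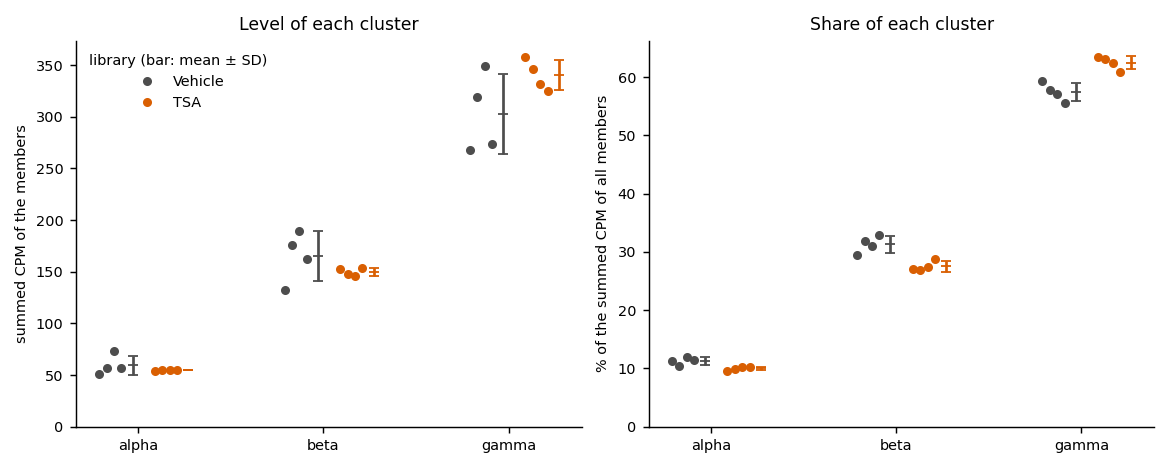
Summed CPM of the alpha, beta and gamma clusters in each library, and the percentage of all member CPM that each cluster held, with a point per library and bars for the mean ± SD (n = 4). The sums overlap between groups, and the gamma percentage is 60.9% to 63.4% in TSA and 55.6% to 59.4% in Vehicle.

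H3K9ac peaks were concentrated in small parts of the locus. Over its 911.6 kb (chromosome 18, 36930285 to 37841873, mm10), the 8 peak lists merged into 26 regions. The 158.9 kb with the alternate alpha members held 0 of them, and so did the 256.4 kb of the beta cluster. The 36.5 kb from Pcdhgc3 to the end of the gamma cluster held 17. The C-type and constant part of alpha held 3, the gap between alpha and beta held 2, the gap between beta and gamma held 2, and the 143.6 kb of alternate gamma members held 3, of which 1 straddled the boundary at Pcdhgc3 and is counted on both sides.

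Library numbers of H3K9ac and RNA were not taken to mark the same tissue. Each H3K9ac library had 7 to 22 peaks over the locus: 18, 17, 15 and 7 in Vehicle 1 to 4 and 21, 15, 15 and 22 in TSA 1 to 4. Vehicle 4 was the lowest, as it was for its whole list, and the other Vehicle libraries lay among the TSA libraries. Of the 26 regions, 3 had a peak in all 8 libraries, against 11.8% of all regions, and 9 had a peak in 1 library, against 57.3% of all regions. A peak in all 4 TSA and no Vehicle library was found for 0 regions (0.198% of all regions) and the reverse for 0 (0.0201%). A peak was found in TSA libraries alone for 8 of the 26 regions, against 46.2% of all regions, and in Vehicle libraries alone for 4, against 19.0% of all regions. With 4 lists a group, presence of a peak is the only value compared, and the number called in a list moves it.

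The broadest region lay over the start of Pcdhgc3 (37805738 to 37808991) and had peaks in all 8 libraries. By the authors' fold enrichment over local background, ranked within each list, its strongest peak exceeded 80.2% to 95.3% of peaks. A second region present in all 8 libraries lay over the start of Pcdhgc4 (37814876 to 37816400), and another such region (37824315 to 37826115) lay 4769 bp past the start of Pcdhgc5, between it and the end of the cluster. The last of these was covered for at least 50% of its length in 4 TSA and 0 Vehicle libraries, as were 0.122% of all regions. The reverse, 4 Vehicle and 0 TSA libraries, held for 0 of the 26 regions and for 0.0181% of all regions.

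In the alpha cluster, a region over the start of Pcdhac2 (37143302 to 37144854) had peaks in 7 libraries. Another, 34210 bp past that start and still inside the gene (37177888 to 37178958), also had peaks in 7, and so did a region at the end of the gamma cluster (37841032 to 37843220). Vehicle 4 was the library without a peak in all 3 cases. Between alpha and beta, 2 neighbouring regions began 27959 and 28757 bp past the end of the alpha cluster (37216856 to 37217445 and 37217654 to 37218338), with peaks in 5 and 4 libraries. They lie outside any member.

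**Figure D4:**
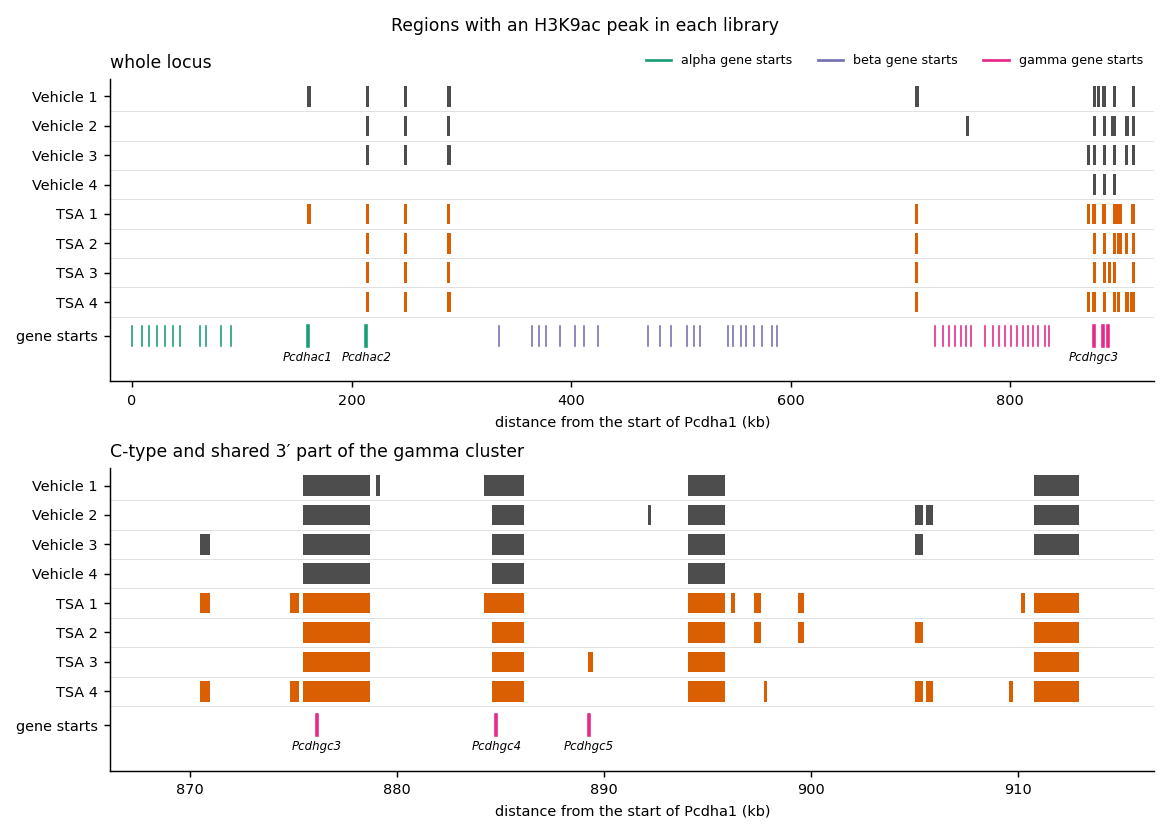
Merged regions in which each library has an H3K9ac peak, drawn over the whole locus and over the C-type part of the gamma cluster by distance in kb from the start of Pcdha1, with member starts marked by cluster. Marks gather at the starts of Pcdhac2, Pcdhgc3 and Pcdhgc4 and at the gamma end, and the alternate alpha and beta starts have none.

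At the promoters, the C-type members Pcdhgc3, Pcdhgc4 and Pcdhac2 stood apart from the other members in these lists. A peak within 1000 bp of the annotated start was found in at least 1 library for 6 of 58 members (10.3%), against 93.9% of tested genes with a single listed start and 94.1% of those between 1 and 100 CPM. All 5 C-type members were among them: Pcdhgc3 and Pcdhgc4 in 8 libraries, Pcdhac2 in 7, Pcdhac1 in Vehicle 1 and TSA 1, and Pcdhgc5 in TSA 3. Of the other 53 members, 1 had such a peak, Pcdhgb2 in Vehicle 2 (1.89%). A peak in all 8 libraries was found for 2 members, against 69.1% of those tested genes and 66.0% of those between 1 and 100 CPM. The 58 members include 6 that were not tested, while all comparison genes were tested.

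Many starts without a peak belonged to members with RNA. Pcdhgb6, at 25.0 CPM in Vehicle, and Pcdhb17, at 19.6 CPM in Vehicle, had no peak within 1000 bp of the start in any of the 8 libraries. Alternate members are each used by a fraction of neurons, and no value here separates a mark carried by few cells from its absence. A peak list also shows only what passed the caller's threshold, so weaker signal at the alternate starts was not measured.

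Genes known to act on protocadherin promoter choice held more calls than the members, at a share nearer to that of all tested genes. Of 24 regulators (cohesin and its loaders, CTCF, DNA methylation and silencing factors), 9 rose and 1 fell with TSA, 41.7% in all. The share over all tested genes was 33.0%, and the median log2 fold change of the regulators was 0.20. Wiz, a zinc finger protein that holds chromatin loops and was linked to protocadherin expression, had 138, 133, 151 and 125 CPM in the Vehicle libraries and 234, 208, 197 and 247 CPM in TSA, with a log2 fold change of 0.70 ± 0.10 (edgeR adjusted p = 0.000151, SE with n = 4 per group). Tet3 and Tet1, which oxidise methylated cytosine, rose by 0.52 and 0.58 on the log2 scale. Rad21, the cohesin subunit, was the 1 that fell, from 390, 547, 511 and 474 CPM in Vehicle to 327, 349, 360 and 334 CPM in TSA (log2 fold change −0.49 ± 0.11, edgeR adjusted p = 0.00301). Ctcf had a log2 fold change of 0.11 ± 0.11 SE (edgeR adjusted p = 0.465). The count of called regulators was 6 without TSA 1, the lowest with 1 library left out, and 15 without Vehicle 2, the highest. Of all tested genes, 25.1% and 36.7% were called in those 2 fits. Sex and treatment were not told apart for these calls.

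Of 21 genes that process protocadherins or carry their signals, 4 rose and 2 fell, 28.6% in all against 33.0% of all tested genes. Cyfip2, a subunit of the WAVE actin regulator that binds many protocadherin tails, rose by 0.74 on the log2 scale, and the adhesion proteins Nlgn1 and Nlgn2 by 0.43 and 0.38. Pdcd10, a regulator of neuron survival that binds gamma protocadherin tails, had 26.7, 20.9, 19.7 and 27.6 CPM in the Vehicle libraries and 9.15, 11.5, 11.9 and 10.5 CPM in TSA. All TSA libraries were below all Vehicle libraries, with a log2 fold change of −1.12 ± 0.14 (edgeR adjusted p = 8.6e-05, SE with n = 4 per group). Among 12 nonclustered protocadherins, 0 rose and 1 fell: Pcdh20, from 20.5, 23.7, 21.2 and 24.6 CPM in Vehicle to 13.1, 13.3, 11.999 and 13.4 CPM in TSA. It had a log2 fold change of −0.80 ± 0.11 SE (edgeR adjusted p = 0.000182), and 1 to 3 of the 12 were called when 1 library was left out. For the partners and the nonclustered protocadherins, too, sex and treatment were not told apart.

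The genes flanking the clusters had calls at about the rate of the genome. Of 28 tested neighbours, 3 rose and 6 fell (32.1%, against 33.0% of all tested genes). Among those that fell were Ndfip1 (−0.67 on the log2 scale), Pfdn1 (−0.63) and Ndufa2 (−0.75), and Diaph1, next to the gamma cluster, had a log2 fold change of −0.03 ± 0.08 SE (edgeR adjusted p = 0.841). Taf7, a transcription factor subunit gene that sits between the beta and gamma clusters, had 27.6, 41.7, 39.1 and 38.4 CPM in the Vehicle libraries and 24.2, 25.9, 24.1 and 25.1 CPM in TSA. It was below every Vehicle library in every TSA library, with a log2 fold change of −0.56 ± 0.12 (edgeR adjusted p = 0.00306, SE with n = 4 per group). The H3K9ac region at the Taf7 end nearest to gamma (37643823 to 37644170) had a peak in 4 TSA libraries and in Vehicle 1. In the fit with Xist status, Taf7 had a log2 fold change of −0.55.

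Cell type markers, chosen with earlier results known, differed between the same libraries, and their part in the protocadherin values was not tested. For comparison, 15.4% of all tested genes rose and 17.6% fell. Of 16 neuron markers, 9 rose and 1 fell, with summed levels of 8893 to 11143 CPM under Vehicle and 11404 to 12512 CPM in TSA. Of 12 apical progenitor markers 7 rose and 2 fell, and of 8 basal progenitor markers 3 rose. Of 12 markers of the ganglionic eminence and interneurons, 2 rose and 10 fell, with summed levels of 1089 to 1318 CPM under Vehicle and 557 to 828 CPM in TSA. Microglia markers fell for 5 of 10, endothelial and erythroid markers for 2 of 8 each and meningeal markers for 1 of 6 tested, while 1 of 5 oligodendrocyte precursor markers rose and 1 fell and 0 of 5 tested choroid plexus markers were called (1 without Vehicle 3). The number of called neuron markers was 6 without TSA 2, and that of microglia markers was as low as 2 when 1 library was left out. Sex and treatment were not told apart for the markers either.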

How the data were processed

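RNA was measured in 4 Vehicle and 4 TSA libraries, and H3K9ac in 4 and 4. The authors deposited raw read counts per Ensembl gene, 1 file per library. Strand is not kept by the RNA kit named in the labels' protocols, and overlapping genes therefore share reads. The submitters' processing notes name mm10 and SAMtools. The aligner, the counter and the gene annotation were not given in the sources used here. The rule for reads in constant exons shared by alpha or gamma members is therefore unknown. Pcdhga10 and Gm37013 span the gamma constant exons and had 0 counts in all 8 libraries. Reads in those exons were thus not counted for every gene that spans them. Of 47729 genes, 47224 matched a symbol. H3K9ac peaks were called per library with MACS2 2.1.0.20140616 at a q limit of 0.1 against 1 input of 18937878 tags, per the file headers. The deposited lists give pileup signal, fold enrichment (a ratio to local background) and −log10 p-values and q-values per peak, used here only within a list.

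The test was run in edgeR 4.0.16 under R 4.3.3 (filterByExpr, TMM, robust quasi-likelihood fit, no covariate) over all 15000 genes kept, with Benjamini-Hochberg adjustment and a threshold of 0.05. The fit was tested on simulated data. CPM use TMM-scaled totals, and the standard error is the log2 fold change over the root of its F statistic. Replicate libraries differed beyond sampling noise, with a chi-square per degree of freedom of 2.98 to 32.8. Peaks of the 8 lists were merged into regions, and member starts were the lower RefSeq coordinate (GRCm38.p6), since the members are read in that direction. Genes of chromosome 18 were not used in the background share at starts. Named members were the C-type members, the 3 with the highest CPM in each cluster and those at 0 in a group, plus up to 4 genes with the smallest p in each of the other lists that the text describes. 1 gene that this rule takes is not reported here. Alternatives were RLE factors, DESeq2 1.42.0, no count filter, each library left out, a replicate block, sequencing lane, Xist status, Vehicle 1 and Vehicle 4 left out, a stricter peak threshold, other windows and at least 50% coverage of a region. Members and lists were chosen with earlier results of these data known.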

Additional observations from a re-analysis of the deposited data

Results flagged for a closer look

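Each reported set of 4 libraries was checked for a library far from the other 3, 72 group values in all, and chance alone marks about 1 in 20 such groups. Pcdhgc3 stood out in Vehicle 3, with 72.8 CPM against 53.3 to 56.6 CPM in the other Vehicle libraries. Pcdhb17 stood out in Vehicle 1, with 15.3 CPM against 20.6 to 21.4 CPM in the others. Pcdhb22 stood out in TSA 3, with 12.2 CPM against 14.5 to 14.9 CPM in the other TSA libraries. In the H3K9ac data, the list of Vehicle 4 held 22668 peaks where the other 3 held 41331 to 43645. TSA 4 had 19920755 H3K9ac tags against 15365856 to 16018415 in the other TSA libraries.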

How the results depend on the processing

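The number of members called stayed at 0 in both directions with RLE factors, DESeq2, no count filter or sequencing lane as a covariate. Leaving out 1 library gave 0 to 4 members lower (4 without Vehicle 1) and 0 to 2 higher: 1 without Vehicle 2 (Pcdhga1), 2 without Vehicle 3 (Pcdhga12, Pcdhgc3) and 1 without TSA 4 (Pcdhga7). Of all tested genes, 25.1% (without TSA 1) to 36.7% (without Vehicle 2) were called with 1 library left out, and 32.6% without Vehicle 1. Without both Vehicle 1 and Vehicle 4, 6 members were lower, where 30.2% of all tested genes were called, and the cause was not tested. Replicate numbers did not pair the RNA libraries: same-numbered libraries correlated at 0.0869 to 0.143, and not every library matched its own number best. A fit with the replicate number as a block called 0 members (8 at an unadjusted p under 0.05) and 5342 genes in all. With Xist status as a covariate, 24 genes of the other lists were called in place of 72, and 1575 of all genes in place of 4954. The cause was not tested. The regions with a peak in every library numbered 3 to 6 with 1 library left out (6 without H3K9ac Vehicle 4) and 0 when at least 50% of a region had to be covered. Regions that separated the groups numbered 0 to 1 with 1 library left out, the 1 (at Taf7) without H3K9ac Vehicle 1, and 1 under the coverage rule. When a peak had to lie over the start itself, 0 members had one in every library, since fewer peaks qualify. Without Vehicle 1 and Vehicle 4, added after seeing the data for the summed levels, the log2 ratios of the sums were −0.25 (alpha), −0.28 (beta) and 0.03 (gamma). No result changed sign among called values. Depth limits members with few counts, the 6 untested ones having 0 to 44 counts each.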
